A study of Mus musculus with 66 samples.

Results

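Oocytes that carried the Foxo3dNES transgene (Tg) and had been grown for 21 days in culture were compared between low oxygen and normal oxygen. The 4 libraries compared, 2 for hypoxia and 2 for normoxia, were taken by their labels from 66 libraries of mouse female germ cells, which also covered oocytes from the ovary and a time course of culture. Of the 24062 genes in the table, 13559 had a mean of at least 1 RPM (reads scaled to a total of 1000000 per library) in hypoxia or in normoxia and were tested. Each library held RNA from oocytes picked from a reconstituted ovary, an aggregate of 5000 Blimp1-mVenus-positive PGCLCs (primordial germ cell-like cells, derived from mouse ESCs) and 75000 frozen-thawed gonadal somatic cells of E12.5 embryos. All cells were of the C57BL/6 X 129/SvJ background, and the Rock inhibitor Y-27632 (10 μM) was present for the first 2 days. Normoxia was 5% CO2 in air, whereas hypoxia was 5% O2, 7% CO2 and 93% N2 as the labels give them (shares that add up to more than the whole, so at least 1 of them is wrong), and effects of oxygen and of CO2 cannot be told apart. The transgene's promoter, its copy number and the number of embryonic stem cell clones are not given in the sources used here. The wild-type (WT) oocytes of the same day, 2 libraries for each oxygen condition, served as the closest comparison, and 4 further D21 libraries with no oxygen label entered only the estimate of spread.

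FOXO3 is a forkhead transcription factor that holds oocytes of primordial follicles in their dormant state. When the growth factor receptor KIT activates PI3K and AKT, FOXO3 is phosphorylated, leaves the nucleus, and the oocyte starts to grow. Under low oxygen the prolyl hydroxylases of the EGLN family no longer mark the HIF transcription factors for destruction, and HIF then raises genes of glycolysis and of oxygen supply. In the ovary the oocyte is enclosed by granulosa cells, which feed it metabolites through gap junctions.

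The 4 Foxo3dNES libraries held 17270861 to 18844342 reads and 17376 to 17650 genes with at least 1 read, and 3 reads corresponded to 0.159 to 0.174 RPM. Replicates had a Pearson's r of 0.998 in hypoxia and 0.997 in normoxia across genes, on the log2 scale, whereas the 2 WT normoxia libraries had 0.983. All 12 oocyte markers, among them Ddx4, Dazl, Nobox, Gdf9 and Zp3, had reads in all 4 libraries. Foxo3 stood at 367 and 364 RPM in hypoxia and at 322 and 324 RPM in normoxia, above the 44.8 to 128 RPM of the 4 WT libraries of labelled oxygen. Reads of the transgene and of the gene itself (chromosome 10, 42181845 to 42276695, mm10) are counted together. Both hypoxia values of Foxo3 lay above both normoxia values, but the difference did not pass (log2 change 0.18 ± 0.29 SE, adjusted p = 0.806, limma).

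Across the 13559 genes, 156 (1.15%) passed limma's test at an adjusted p of 0.05, with the spread estimated over the 12 D21 libraries. Of these, 25 rose in hypoxia (0.184% of the genes) and 131 fell (0.966%). The rises included Ldha, Pgk1 and Eno1 of glycolysis, and the falls included Amhr2, Wt1, Inha, Foxl2 and Wnt4 of granulosa cells. In bulk RNA, fewer cells of a type and less RNA per cell cannot be told apart. The number of calls rested on the spread of the other D21 groups and on each single library. The 4 Foxo3dNES libraries fitted alone gave 3854 calls (28.4%), 2219 higher (16.4%) and 1635 lower (12.1%), and these held all 25 rises and all 131 falls in the same direction. On whole reads recovered from the RPM, edgeR called 375 genes (2.77%), 57 higher (0.42%) and 318 lower (2.35%), and DESeq2 called 1030 (7.6%), 255 higher (1.88%) and 775 lower (5.72%). The edgeR calls held 22 of the 25 rises and all 131 falls in the same direction. Without any 1 of the 4 Foxo3dNES libraries, 0 to 2 genes passed in the design with the other D21 groups.

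**Figure D1:**
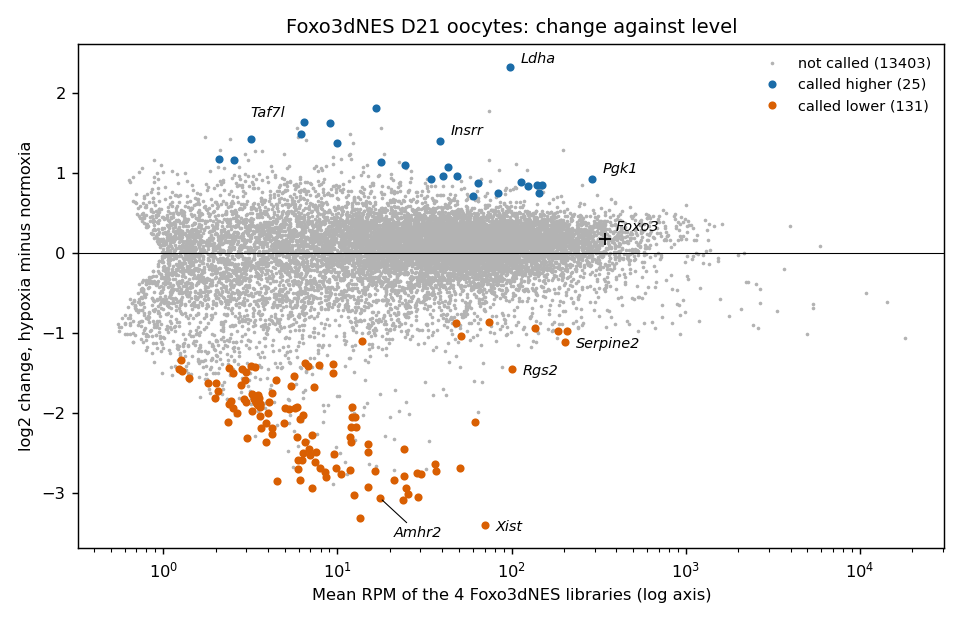
Log2 change (hypoxia minus normoxia, from log2 of RPM + 1) of each of the 13559 tested genes, against the mean RPM of the 4 Foxo3dNES libraries on a log axis. The 25 called higher are blue, the 131 called lower are orange, and the cross marks Foxo3 at 0.18, so that the calls are mostly falls among genes of low level.

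The gene with the largest rise was Ldha, which encodes the muscle-type subunit of lactate dehydrogenase and converts pyruvate to lactate. It measured 114 and 214 RPM in hypoxia against 38.2 and 24.0 RPM in normoxia, a 5.26-fold difference of the means (log2 change 2.33 ± 0.36 SE, adjusted p = 0.0235, limma). The conditions did not overlap, although the 2 hypoxia libraries lay far from each other. Pgk1, the kinase that makes the first ATP of glycolysis, measured 329 and 428 RPM against 213 and 183 RPM (0.93 ± 0.17, adjusted p = 0.0322, limma). Eno1, an enolase, measured 150 and 170 RPM against 88.3 and 90.3 RPM (0.83 ± 0.15, adjusted p = 0.0327, limma). Eno1b, a near-identical copy that may share its reads, rose by about the same, 0.85, so the split between the copies is uncertain. The 3 rises were 3 of the 17 tested glycolysis genes, and 0 fell, beside 0.184% of all tested genes called higher and 0.966% called lower.

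The promoters of these 3 genes are shown because hypoxia response elements carry the core ACGTG, here the first core, or a variant of it spelled GCGTG, here the second core. Each is the 250 bases before a transcript start of the plus strand (RefSeq, GRCm38.p6, the mm10 assembly), and capitals mark either core on either strand. For genes with several starts the first listed window is printed.
Ldha, chr7:46845554-46845803: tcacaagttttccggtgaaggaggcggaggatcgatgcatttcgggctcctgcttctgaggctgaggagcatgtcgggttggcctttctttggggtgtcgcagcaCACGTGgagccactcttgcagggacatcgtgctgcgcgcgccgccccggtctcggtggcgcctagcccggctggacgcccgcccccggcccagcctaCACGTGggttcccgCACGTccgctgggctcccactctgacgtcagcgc
Pgk1, chrX:106186850-106187099: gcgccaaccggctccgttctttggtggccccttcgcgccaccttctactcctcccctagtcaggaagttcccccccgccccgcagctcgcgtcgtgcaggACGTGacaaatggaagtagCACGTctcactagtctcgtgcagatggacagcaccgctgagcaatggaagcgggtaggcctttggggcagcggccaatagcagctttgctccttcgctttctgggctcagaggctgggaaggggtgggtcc
Eno1, chr4:150236458-150236707: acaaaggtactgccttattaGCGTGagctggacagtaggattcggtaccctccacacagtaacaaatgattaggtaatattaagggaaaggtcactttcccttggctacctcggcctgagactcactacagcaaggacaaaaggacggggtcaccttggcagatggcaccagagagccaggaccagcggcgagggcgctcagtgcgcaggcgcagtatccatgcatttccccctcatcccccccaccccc
The first core, on either strand, began at 5 positions of the Ldha window, some of which overlap because the core is contained in a palindrome, and at 2 positions of the Pgk1 window. The Eno1 window held the second core 1 time and the first 0 times. The first core occurred in 6 of the 16 tested glycolysis genes with a window and in 7 of 19 called higher, beside 24.9% of the tested genes and 18.49% of all genes with a window. The second core occurred in 11 of 16 and 13 of 19, beside 50.03% of the tested genes and 30.9% of all. A gene counts here if any of its windows holds the core, and genes differ in their number of windows. Per window, the first core was in 29.63% for glycolysis, 22.58% for genes called higher and 21.35% for tested genes. For the second core the shares were 55.56%, 64.52% and 44.28%. The forkhead core GTAAACA, searched on both strands, occurred in 0 of the 19 genes called higher, 2 of the 73 called lower and 2.61% of the tested genes. These counts describe letters and show no binding.

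Other glycolysis genes were higher in both hypoxia libraries without passing. Hk1, a hexokinase, measured 31.8 and 36.3 RPM against 16.1 and 15.3 RPM (1.07 ± 0.25, adjusted p = 0.0773, limma). Aldoc, an aldolase, measured 10.6 and 12.0 RPM against 4.85 and 4.90 RPM (1.06, adjusted p = 0.0835, limma), and Tpi1, triose phosphate isomerase, 169 and 211 RPM against 107 and 106 RPM (0.82, adjusted p = 0.0671, limma). In all, 12 of the 17 tested glycolysis genes had both hypoxia values above both normoxia values, where 44.8% of all tested genes did, and 2 had both below, where 27.9% did. The median log2 change of the 17 was 0.58, beside 0.08 for all tested genes. Ldhb, the heart-type subunit of lactate dehydrogenase, had the opposite order, with 4589 and 3881 RPM in hypoxia and 6215 and 6971 RPM in normoxia (-0.64, adjusted p = 0.275, limma). Hk1, Aldoc, Tpi1 and Ldhb were chosen after their values were seen.

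**Figure D2:**
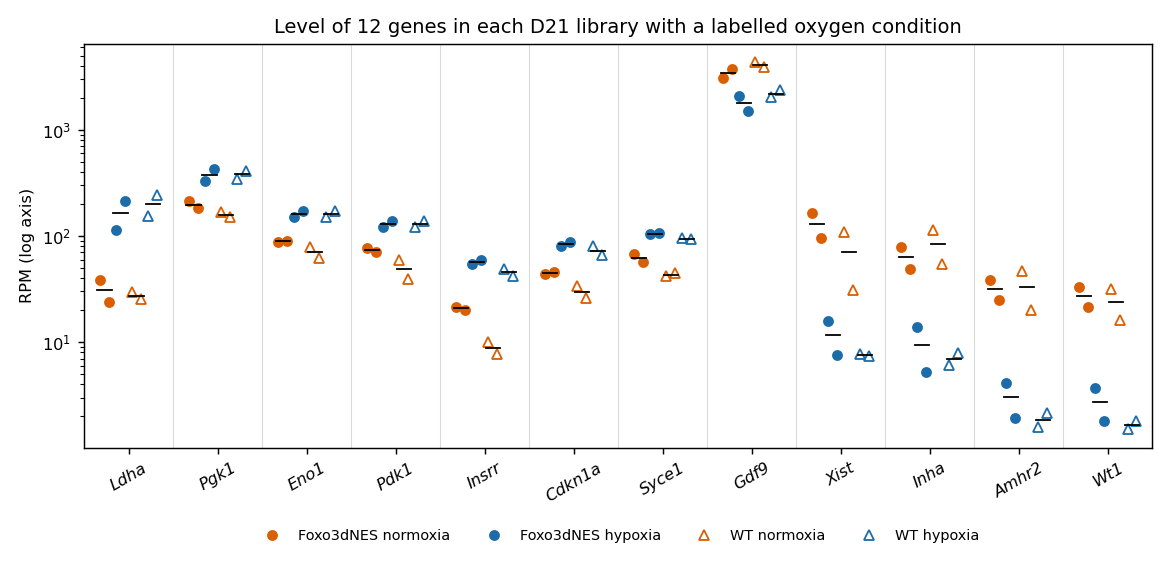
RPM on a log axis of 12 genes in the Foxo3dNES libraries (filled circles) and the WT libraries (open triangles), normoxia in orange and hypoxia in blue, with a bar at the mean of each pair. In the Foxo3dNES libraries Ldha stands at 114 and 214 in hypoxia against 38.2 and 24.0 in normoxia, and Amhr2 at 4.14 and 1.91 against 38.8 and 25.

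The wider set of HIF targets did not move as a block. Of 45 tested, Ldha and Pgk1 passed and 0 fell, beside 0.184% of all tested genes called higher and 0.966% called lower. Without overlap 23 (51.1%) of the targets were higher and 13 (28.9%) lower, near the 44.8% and 27.9% of all tested genes. Their median was 0.15. Pdk1, the kinase that shuts pyruvate out of the mitochondrion, measured 121 and 137 RPM against 76.7 and 71.0 RPM and did not pass (0.80 ± 0.22, adjusted p = 0.120, limma). Carbonic anhydrase 9 (Car9), a HIF target in many tissues, lay the other way, with 27.9 and 15.3 RPM in hypoxia and 38.9 and 49.99 RPM in normoxia (-1.05, adjusted p = 0.117, limma). Vegfa, which draws in blood vessels, measured 5.25 and 3.88 RPM against 12.4 and 5.88 RPM (-0.80). Pdk1, Car9 and Vegfa were chosen after their values were seen. None of the 10 oxygen-sensing genes passed. The oxygen-regulated HIF subunit Hif1a measured 149 and 153 RPM against 165 and 161 RPM (-0.11), and the asparaginyl hydroxylase Hif1an, which blocks its activity, 222 and 233 RPM against 196 and 185 RPM (0.25). Of 6 tested glucose, lactate and pyruvate carriers 0 passed, with the lactate carrier Slc16a1 at 32.7 and 30.5 RPM against 36.6 and 31.7 RPM and the pyruvate carrier subunit Mpc2 at 47.8 and 49.9 RPM against 44.2 and 43.3 RPM.

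Of 31 tested FOXO targets 1 rose and 0 fell, beside 0.184% and 0.966% of all tested genes. It was Cdkn1a, which encodes the cell cycle inhibitor p21 and is also a p53 target, with 79.8 and 87.0 RPM against 44.0 and 45.7 RPM (0.88 ± 0.18, adjusted p = 0.0489, limma). Of the 31, 17 (54.8%) were higher and 4 (12.9%) lower without overlap, beside 44.8% and 27.9% of all tested genes, with a median of 0.13. Cdkn1a was likewise the 1 called gene among 7 CDK inhibitors and among 18 tested p53 targets. Of these 2 lists, 5 (71.4%) and 10 (55.6%) were higher without overlap, and 1 (14.3%) and 2 (11.1%) lower. Cdkn1b (p27), which restrains primordial follicles, measured 101 and 108 RPM against 92.7 and 88.3 RPM (0.21, adjusted p = 0.577, limma, chosen after its values were seen). None of the 4 FOXO factors passed, and Foxo1 overlapped between conditions (98.1 and 83.7 RPM against 85.8 and 96.3 RPM). Among 32 genes of the PI3K, AKT and mTOR pathway 0 passed, and their median was 0.11. The receptor Kit measured 1014 and 1085 RPM against 881 and 752 RPM (0.37, adjusted p = 0.420, limma), and ribosomal protein Rps6, a substrate at the pathway's end, 720 and 774 RPM against 659 and 593 RPM (0.26).

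Other rises included a receptor, a kinase, a carrier and other enzymes. Insrr, an orphan receptor of the insulin receptor family that senses alkaline medium, measured 54.1 and 59.6 RPM in hypoxia and 21.6 and 20.1 RPM in normoxia (1.40 ± 0.18, adjusted p = 0.0231, limma). Nuak1, an AMPK-related kinase, measured 23.8 and 25.9 RPM against 11.9 and 9.64 RPM (1.14). In both genes the replicates lay close together and the conditions did not overlap. Atp4a, a proton pump subunit, rose by 0.97 on the log2 scale, and Slc27a2, a fatty acid carrier and acyl-CoA synthetase, by 0.96. The phosphodiesterase Pde10a rose by 0.93 and Plekhb2 by 0.88. Adjusted p-values of these genes ran from 0.0231 to 0.0442.

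A few rises were of genes known from germ cells and meiosis, although the lists of such genes held 1 call. Mov10l1, a helicase that feeds precursors into the piRNA pathway, measured 177 and 182 RPM against 104 and 94.2 RPM (0.85 ± 0.17, adjusted p = 0.0494, limma). Syce1, a central element of the synaptonemal complex, measured 104 and 107 RPM against 68.1 and 56.5 RPM (0.75 ± 0.15, adjusted p = 0.0434, limma). With edgeR Syce1 did not pass (adjusted p = 0.0629, edgeR). It was the 1 called gene of 28 tested genes of meiotic prophase, beside 0.184% of all tested genes called higher. Of the 28, 21 (75%) were higher without overlap and 5 (17.9%) lower, beside 44.8% and 27.9% of all tested genes, with a median of 0.41. Taf7l, a germ cell variant of a general transcription factor subunit, and Zcwpw1, a reader of histone marks at meiotic hotspots, rose by 1.64 and 0.75. The axial element gene Sycp3 measured 167 and 162 RPM against 80.2 and 79.6 RPM and did not pass (1.03, adjusted p = 0.0574, limma). Taf7l, Zcwpw1 and Sycp3 were chosen after their values were seen. Of 15 germ cell identity genes 0 passed, with Pou5f1 at 609 and 625 RPM against 572 and 597 RPM.

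The gene with the largest fall on the log2(RPM + 1) scale was Xist, the non-coding RNA that coats the inactive X chromosome of female somatic cells. It measured 15.8 and 7.53 RPM in hypoxia against 163 and 96.1 RPM in normoxia, an 11.1-fold difference of the means (-3.40 ± 0.52, adjusted p = 0.0235, limma). By the fold of the means or by edgeR it is not the largest, since Tgfb1i1, for example, was 14.8-fold lower and had a log2 change of -3.92 with edgeR, against -3.53 for Xist. The named falls next to it included Amhr2, the receptor for anti-Müllerian hormone, with 4.14 and 1.91 RPM against 38.8 and 25 RPM (-3.06 ± 0.41, adjusted p = 0.0231, limma). Wt1, a transcription factor of granulosa precursors, measured 3.71 and 1.79 RPM against 32.8 and 21.5 RPM (-2.92 ± 0.36, adjusted p = 0.0231, limma). For Xist, Amhr2 and Wt1 the lowest normoxia value was at least 5 times the highest hypoxia value, and in both conditions the first library was the higher.

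Further falls followed the same order of libraries. Inha, the inhibin alpha subunit, measured 13.7 and 5.21 RPM against 79.5 and 48.5 RPM (-2.72, adjusted p = 0.0279, limma). Foxl2, the transcription factor that keeps granulosa identity, measured 1.70 and 0.521 RPM against 13.9 and 8.88 RPM (-2.58, adjusted p = 0.0235, limma). The antisense transcript Foxl2os also passed (-2.70, chosen after its values were seen), and since strand use in counting is not given, its reads and those of Foxl2 cannot be told apart. Wnt4, a signal of female gonad development, fell by 1.43 on the log2 scale. Gja1, connexin 43 of the junctions between granulosa cells, measured 5.36 and 3.47 RPM against 46.8 and 29.5 RPM (-2.84). Ccnd2, a D-type cyclin that granulosa cells use to divide, measured 3.5 and 1.39 RPM against 26.0 and 16.1 RPM (-2.71).

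The remaining largest falls were Tgfb1i1 (-3.31), Axl, a receptor for the ligand Gas6 (-3.08), Synpo, an actin-binding protein (-3.04), and the chemokine Cxcl10 (-3.02). The aldo-keto reductase Akr1cl (-3.01), the secreted chaperone Clu (-2.94), the glutathione transferase Gstm2 (-2.79) and the prohormone carboxypeptidase Cpe (-2.76) completed them. Adjusted p-values of these 8 ran from 0.0109 for Gstm2 to 0.0350 for Axl. The early response gene Ier3 fell by 2.49 and the mitochondrial enzyme Pck2 by 1.83. All 22 gamma-protocadherin genes were among the 131 falls, and since they share their 3′ exons the same reads may be counted in each. Pcdhga1, for example, measured 0.849 and 1.16 RPM against 7.11 and 5.12 RPM (chosen after the values were seen), which leaves 109 falls outside the cluster. Of the 131, 95 had a normoxia mean under 20 RPM. Falls of more abundant genes included Serpine2, a protease inhibitor, with 150 and 108 RPM against 266 and 289 RPM (-1.11), and Rgs2, an inhibitor of G-protein signalling, with 66.3 and 42.1 RPM against 131 and 165 RPM (-1.46), both chosen after their values were seen.

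The granulosa markers moved with these falls. Of 25 markers 19 were tested, 5 fell (Amhr2, Wt1, Inha, Foxl2 and Wnt4), 0 rose, and 17 (89.5%) were lower without overlap, where 0.966% of all tested genes fell and 27.9% were lower without overlap. Their median was -1.45, beside 0.08 for all tested genes. Their summed level was 98.2 and 62.1 RPM in hypoxia and 374 and 265 RPM in normoxia. Krt19 was listed at 0 in both normoxia libraries, and Krt19 and Inhba in the second hypoxia library. Across the 27 libraries of the culture course, which enter no D21 comparison, the level of 104 genes called lower outside the granulosa list and the gamma-protocadherins correlated with the summed granulosa markers with a median r of 0.89, beside 0.36 for all tested genes and 0.43 for those called higher. Some falls had a negative r, among them Derl3 (-0.79), Cdo1 (-0.54), Serpine2 (-0.23) and Rgs2 (-0.13), chosen after their values were seen. These r share their libraries and are a description. The part of granulosa RNA in the falls was not tested.

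**Figure D3:**
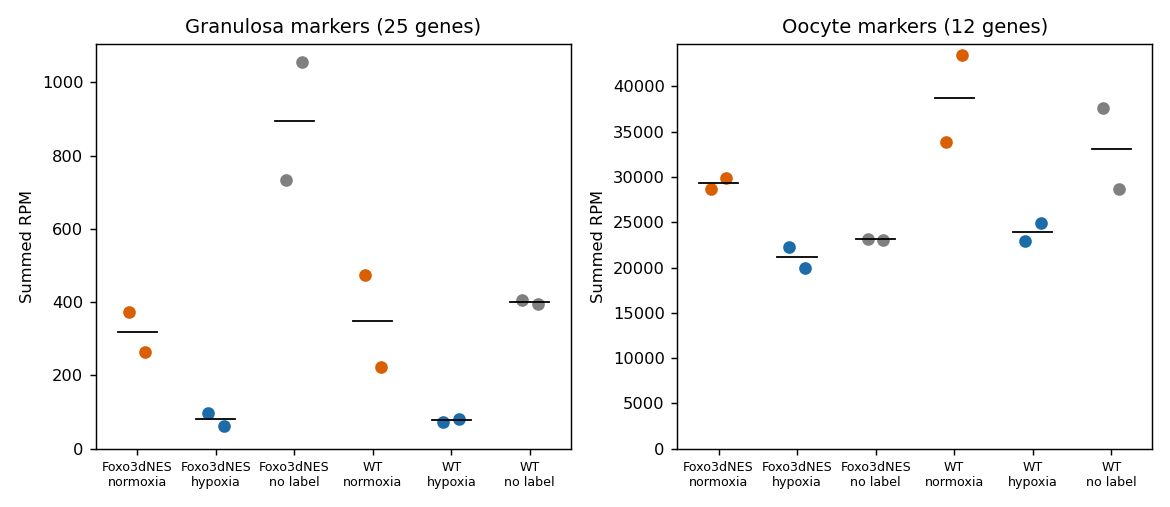
Summed RPM of 25 granulosa markers (left) and 12 oocyte markers (right) in each of the 12 D21 libraries, with a bar at the mean of each pair. Foxo3dNES hypoxia stands at 98.2 and 62.1 for granulosa markers and normoxia at 374 and 265, and the oocyte markers stand at 22292 and 19976 in hypoxia and at 28731 and 29870 in normoxia.

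The summed markers of other cells overlapped between the conditions, although some single markers did not overlap. The 16 stroma and theca markers summed to 65.3 and 82.9 RPM in hypoxia and 83.8 and 74.9 RPM in normoxia. The 8 endothelial markers summed to 15.6 and 27.6 RPM against 15.8 and 22.5 RPM, and the 16 blood and immune markers to 13 and 16 RPM against 9.64 and 17.9 RPM. None of the 10, 5 and 3 tested markers of these lists passed. Of the 10 stroma and theca markers 4 (40%) were lower and 0 higher without overlap, beside 27.9% and 44.8% of all tested genes, with a median of -0.27. The 4 Foxo3dNES libraries fitted alone called 2 of the 10 lower, beside 12.1% of all tested genes. Of the 5 endothelial markers 3 (60%) were higher and 1 (20%) lower without overlap, with a median of 0.68. That fit called 2 of the 5 higher, beside 16.4% of all tested genes. The surface epithelium markers summed to 4.62 and 4.81 RPM against 3.69 and 6.48 RPM, and the pluripotent stem cell markers to 79.1 and 88.9 RPM against 79.1 and 91.9 RPM.

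Genes that oocytes store while they grow were lower in hypoxia, but 0 passed. Of 52 tested maternal-effect and maternal store genes 48 (92.3%) were lower without overlap and 1 (1.92%) was higher, beside 27.9% and 44.8% of all tested genes, with a median of -0.78. The 4 Foxo3dNES libraries fitted alone called 38 of them lower, beside 12.1% of all tested genes. Nlrp14 measured 3815 and 2787 RPM in hypoxia and 6001 and 7197 RPM in normoxia (-1.01 ± 0.23, adjusted p = 0.0630, limma). Padi6, needed for the cytoplasmic lattices of the egg, measured 12215 and 10600 RPM against 17253 and 17508 RPM (-0.61, adjusted p = 0.286, limma). All 9 secreted factors and zona pellucida genes were lower without overlap, where 27.9% of all tested genes were, with a median of -0.70. Zp2 and Zp3, coat proteins of the egg, measured 9358 and 8560 RPM against 12736 and 12483 RPM (-0.49) and 4428 and 3800 RPM against 6351 and 6869 RPM (-0.69). Gdf9, the growth factor by which the oocyte acts on its granulosa cells, measured 2096 and 1495 RPM against 3102 and 3726 RPM (-0.94 ± 0.21, adjusted p = 0.0635, limma, chosen after its values were seen).

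Of 14 tested follicle-formation transcription factors Foxl2, a granulosa gene, passed. Of the 14, 7 (50%) were higher without overlap and 5 (35.7%) lower, beside 44.8% and 27.9% of all tested genes. The 4 Foxo3dNES libraries fitted alone called 4 higher and 4 lower, beside 16.4% and 12.1% of all tested genes. Sohlh1 measured 432 and 485 RPM against 301 and 274 RPM (0.67, adjusted p = 0.212, limma), and Figla, which turns on the zona genes, 225 and 256 RPM against 161 and 148 RPM (0.64, adjusted p = 0.421, limma). Nobox overlapped, at 1383 and 1402 RPM against 1408 and 1308 RPM (0.04). Sohlh1, Figla and Nobox were chosen after their values were seen.

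**Figure D4:**
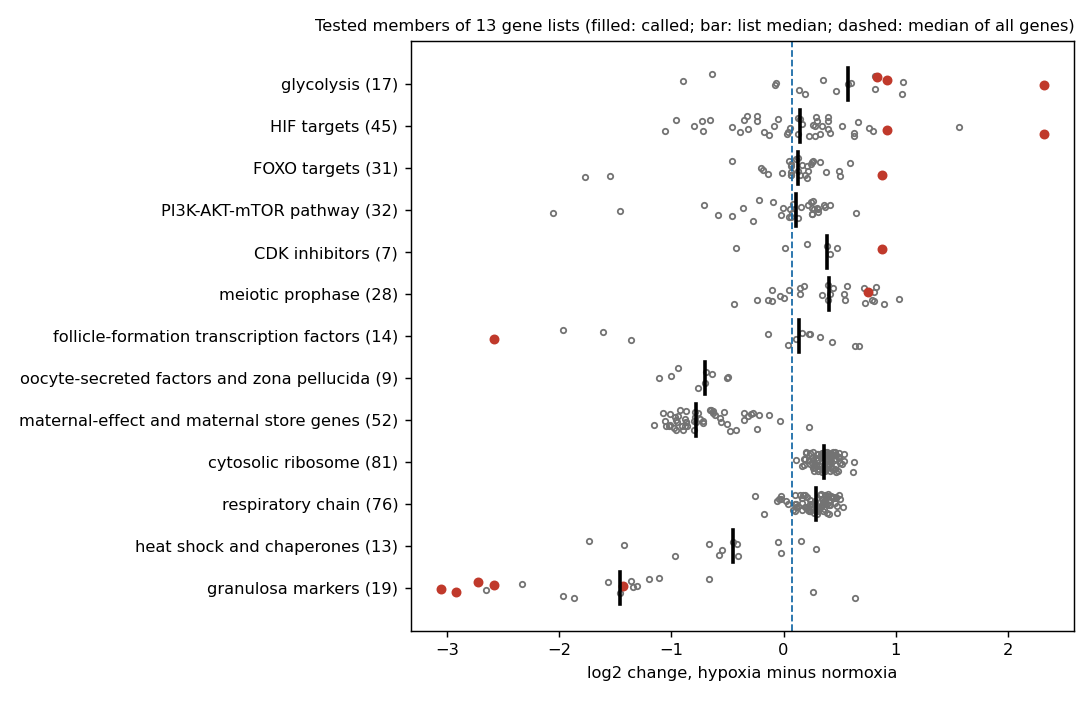
Log2 change (hypoxia minus normoxia) of the tested members of 13 gene lists, with the number tested after each name. Filled red points are called, black bars are list medians (0.58 for glycolysis, -0.78 for maternal genes, -1.45 for granulosa markers) and the dashed line is the median of all tested genes, 0.08.

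Genes that differ between small and large oocytes of the ovary were taken as a pair of further lists. From the in vivo libraries, 3054 genes were called higher in small than in large oocytes at both P4 and P6 by a log2 change of at least 1, and 1484 were called lower. Small oocytes are those of primordial follicles or near that stage, and large oocytes are growing. Among the small-oocyte genes 3006 were tested at D21, 23 rose (0.184% of all tested genes did), 30 fell (0.966% of all did) and the median was 0.33, with 86.6% above 0 beside 59.4% of all tested genes. Among the large-oocyte genes 1399 were tested, 0 rose and 13 fell, a share near that of all tested genes, and the median was -0.50, with 96.4% below 0 beside 40.6% of all tested genes. Of the 25 rises 23 were small-oocyte genes. Ldha, for example, measured 9.23 ± 0.945 RPM (SD, n = 3) in small and 0.298 ± 0.0831 RPM (SD, n = 3) in large P6 oocytes. Insrr measured 29.97 ± 4.33 RPM and 0.226 ± 0.307 RPM there, and Mov10l1 270.4 ± 25.5 RPM and 49.9 ± 5.82 RPM (SD, n = 3 each). The small-oocyte list also holds granulosa genes, such as Amhr2 and Wt1, which fell.

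**Figure D5:**
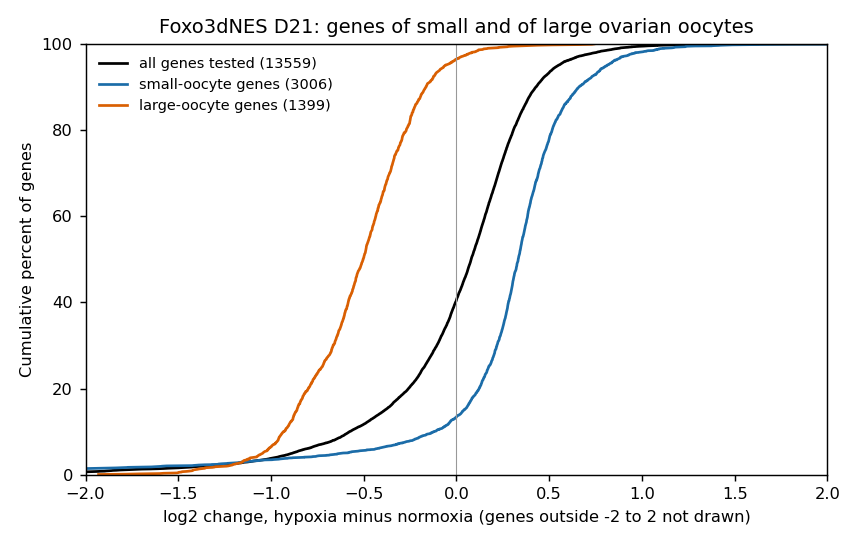
Cumulative percent of genes against the log2 change (hypoxia minus normoxia) at D21 for all 13559 tested genes, the 3006 small-oocyte genes and the 1399 large-oocyte genes. The curve of the small-oocyte genes lies to the right, with a median of 0.33, and that of the large-oocyte genes to the left, with a median of -0.50.

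Of the ribosomal and respiratory genes 0 passed. Of 81 tested cytosolic ribosomal protein genes 79 (97.5%) were higher without overlap, beside 44.8% of all tested genes, with log2 changes from 0.11 to 0.63 and a median of 0.36. Rpl17 measured 1532 and 1722 RPM against 1329 and 1235 RPM, and Rpl4 1469 and 1584 RPM against 1270 and 1108 RPM. Of 76 nuclear-encoded respiratory chain genes 66 (86.8%) were higher and 2 (2.63%) lower without overlap, with log2 changes from -0.26 to 0.53 and a median of 0.29. The 4 Foxo3dNES libraries fitted alone called 63 of the 81 and 40 of the 76 higher, beside 16.4% of all tested genes. The medians were 0.31 and 0.24 once RPM were rescaled with median-of-ratios factors, which moved the median of all genes from 0.08 to 0.03. Of 77 mitochondrial ribosome genes 0 passed, with a median of 0.17.

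Stress and turnover genes gave few calls in the main test. Of 13 tested heat shock and chaperone genes 9 (69.2%) were lower without overlap, beside 27.9% of all tested genes, and 0 passed, with a median of -0.45. Hsp90aa1 measured 2515 and 2001 RPM against 2769 and 3403 RPM, and Hsp90ab1 overlapped. Of 31 genes of the unfolded protein and integrated stress response 1 fell, Pck2, beside 0.966% of all tested genes, and the median was -0.01. Of 32 autophagy genes 0 passed, with a median of 0.16, and the mitophagy receptor Bnip3l measured 611 and 663 RPM against 531 and 514 RPM (0.28). Of 20 immediate early genes 1 fell, Ier3, and of 32 tested proliferation genes 1 fell, Ccnd2, beside 0.966% of all tested genes. Over the culture course Pck2, Ier3 and Ccnd2 had an r of 0.76, 0.93 and 0.93 with the summed granulosa markers. The median for all tested genes was 0.36. The part of granulosa RNA in these 3 falls was not tested. Of the immediate early genes 11 (55%) were lower and 3 (15%) higher without overlap, beside 27.9% and 44.8% of all. Their median was -0.39. The 4 Foxo3dNES libraries fitted alone called 10 of them lower, beside 12.1% of all, and edgeR called 6 lower, beside 2.35%. Of the proliferation genes 13 (40.6%) were lower and 9 (28.1%) higher without overlap, with a median of -0.03. None of 13 DNA methylation genes passed. The maintenance methyltransferase Dnmt1 measured 1475 and 1131 RPM against 2065 and 2423 RPM (-0.79, adjusted p = 0.224, limma). None of the 16 oxygen-dependent histone demethylases passed, with a median of 0.25.

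Of 7 gap junction and adhesion genes 1 fell, Gja1 of the granulosa cell junctions, beside 0.966% of all tested genes, and the median was -0.10. Without overlap 4 (57.1%) were lower and 2 (28.6%) higher, beside 27.9% and 44.8% of all. The lists of antioxidant enzymes, BCL2 family, cholesterol biosynthesis, proteasome, ribosome biogenesis and collagen genes held 0 calls in the main test. Of 27 antioxidant enzyme genes the median was 0.13, with the superoxide dismutase Sod1 at 796 and 889 RPM against 737 and 713 RPM, and the peroxiredoxin Prdx1 overlapping (657 and 666 RPM against 637 and 714 RPM). Of 15 tested BCL2 family genes the median was 0.02. The oocyte family member Bcl2l10 measured 176 and 106 RPM in hypoxia and 213 and 333 RPM in normoxia (-0.96, adjusted p = 0.171, limma), and the survival factor Mcl1 overlapped. The 23 tested cholesterol biosynthesis genes had a median of -0.05, with squalene synthase Fdft1 overlapping. The 37 tested proteasome genes had 0.10, the 45 ribosome biogenesis genes 0.14 and the 21 tested collagen and matrix genes -0.40. Of the collagen and matrix genes 12 (57.1%) were lower and 3 (14.3%) higher without overlap, beside 27.9% and 44.8% of all. Of the proteasome genes 25 (67.6%) were higher and 3 (8.11%) lower, and of ribosome biogenesis 26 (57.8%) and 6 (13.3%). The 4 Foxo3dNES libraries fitted alone called 9 collagen and matrix genes lower, beside 12.1% of all. That fit called 11 proteasome and 10 ribosome biogenesis genes higher, beside 16.4%. Npm1, a nucleolar chaperone, overlapped at 412 and 411 RPM against 410 and 425 RPM. C1qb and Laptm5 of the immune markers, Ptch1 of the stroma markers and the stem cell marker Esrrb overlapped between the conditions as well.

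WT oocytes of the same day were compared to ask where the transgenic oocytes differed. In WT, 3309 of 13731 genes passed (24.1%), 2343 higher (17.1%) and 966 lower (7.04%). The balance of rises and falls turned on the scaling, with 1674 higher and 1510 lower after median-of-ratios scaling, 1827 and 1865 with edgeR, and 2191 and 2458 with DESeq2. All 25 rises of the Foxo3dNES comparison also rose in WT, and 127 of its 131 falls also fell there. Both comparisons came from 1 fit with the same estimate of spread for each gene, so these calls are not independent. Without WT hypoxia replicate 1 the WT count dropped to 16, without replicate 2 to 111, without WT normoxia replicate 1 it was 6109 and without replicate 2 it was 1326. The difference of the 2 responses was then tested itself, and 0 of 13914 genes passed by limma (smallest adjusted p = 0.628), with 868 (6.24%) at an unadjusted p below 0.05. edgeR gave 0 and DESeq2 gave 2. Leaving out WT normoxia replicate 1 gave 2427 calls in that test and leaving out replicate 2 gave 0, so the test turns on the 2 WT normoxia libraries, whose levels lay apart.

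The sizes of single changes were set beside those in WT. Ldha had a log2 change of 2.33 in Foxo3dNES and 2.78 in WT, a difference of -0.45 (95% interval -1.58 to 0.67). Amhr2 had -3.06 and -3.47, a difference of 0.42 (-0.88 to 1.71). Insrr had 1.40 and 2.25, a difference of -0.84 (-1.42 to -0.27), which did not pass after adjustment (adjusted p = 0.628, limma). Gstm2 had -2.79 and -3.92, a difference of 1.14 (0.26 to 2.01, adjusted p = 0.628, limma). Mov10l1 rose by 0.85 in Foxo3dNES, a difference from WT of -0.64 (-1.19 to -0.10, adjusted p = 0.628, limma). Foxo3 itself had 0.18 and 0.99, a difference of -0.81 (-1.70 to 0.09). The medians of lists were also set beside WT, with Foxo3dNES given first. All tested genes had 0.08 and 0.17. Glycolysis genes had 0.58 and 0.77, maternal genes -0.78 and -0.85, and secreted and zona genes -0.70 and -0.97. Granulosa markers had -1.45 and -1.61, small-oocyte genes 0.33 and 0.50, and large-oocyte genes -0.50 and -0.45. Signs were opposite for some lists. The ribosomal protein genes had a median of 0.36 in Foxo3dNES and -0.33 in WT, and the respiratory chain genes 0.29 and -0.43. The mitochondrial ribosome genes had 0.17 and -0.32. The median of the per-gene difference was 0.72 for the 81 ribosomal protein genes, 1.24 without WT normoxia replicate 1 and 0.21 without replicate 2. For the 76 respiratory chain genes it was 0.71, 1.26 without replicate 1 and 0.15 without replicate 2. For all tested genes it was -0.13, -0.27 without replicate 1 and -0.01 without replicate 2.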

How the data were processed

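Expression was analysed as the RPM deposited by the authors, in which each library sums to 1000000 and transcript length is not divided out. The RNA was poly(A)-selected and the libraries were strand-specific with 12 cycles of PCR, per the labels' protocols. TopHat2, Bowtie2 2.0.13, featureCounts 1.5.1, R 3.4.4 and mm10 are named per the submitters' processing notes, and settings, annotation and strand use are not given in the sources used here. Values of a library were multiples of 1 step, and whole reads were recovered for 99.9999% of values within 0.01 of a read (99.996% in the 1 library that fell short).

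Genes with a mean of at least 1 RPM in either group were tested with limma 3.58.1 (R 4.3.3, limma-trend, two-sided) on log2(RPM + 1), with 1 mean for each of the 6 D21 groups of 2 libraries (6 residual degrees of freedom) and Benjamini-Hochberg adjustment. Called means an adjusted p under 0.05. Log2 changes are on the log2(RPM + 1) scale, which understates changes of low genes. The p-values measure the spread between these libraries, and floors of 3 reads cover counting error only. edgeR 4.0.16 and DESeq2 1.42.0 were run on recovered reads as alternatives. The scripts were tested on simulated data.

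Named genes were Foxo3, the 12 largest rises and 12 largest falls among called genes without overlap whose higher mean was at least 20 RPM, passing over predicted genes and the gamma-protocadherins, and from each list up to 4 called members or, with 0 called, 2 of highest level. Of the genes this rule names, 2 are not reported here. The conditions, genes and lists were chosen with earlier results of these data known. The labels call the replicates biological duplicates, and replicate numbers were not shown to pair libraries.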

Additional observations from a re-analysis of the deposited data

How the results depend on the processing

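Of the 13559 genes, 156 passed for Foxo3dNES. The count was 3854 from the 4 Foxo3dNES libraries alone, 3140 from the 6 Foxo3dNES libraries, 463 without both WT normoxia libraries, 375 with edgeR, 1030 with DESeq2, 235 after median-of-ratios scaling, 9 with a pseudocount of 5 and 0 with no filter, where 2005 genes had an unadjusted p below 0.05 in the main test. Leaving out 1 library gave 0 to 460. For the difference between Foxo3dNES and WT, DESeq2 gave 2 and leaving out 1 library gave 0 to 2427. For WT, leaving out 1 library gave 16 to 6109. The fit of 6 Foxo3dNES libraries, the fit without both WT normoxia libraries and the leaving out of WT libraries were chosen after seeing the data.

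Of the named genes 31 were called. The count was 20 in the fit of 8 libraries, 3 with a pseudocount of 5, 0 with no filter and 0 to 31 without 1 library. Of the list members 14 were called. The count was 375 from 4 and 325 from 6 Foxo3dNES libraries, 112 with DESeq2, 35 with edgeR, 60 without both WT normoxia libraries, 1 with a pseudocount of 5, 0 with no filter and 0 to 60 without 1 library.

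With the replicate number as a block, 102 genes were called. Deviations of same-numbered Foxo3dNES libraries correlated at -0.18, and the crossed pairing, chosen after seeing the data, gave 160 calls and 25 among the list members.

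Of the named genes, 10 changed sign under an alternative, and none of these was called in the main test. Mcl1 had a log2 change of 0.030 in the main test, -0.022 with DESeq2, -0.035 with edgeR and -0.022 after median-of-ratios scaling. Leaving out 1 library gave -0.017 to 0.078 for Mcl1, -0.12 to 0.11 for Foxo1, -0.046 to 0.0044 for Npm1, -0.064 to 0.042 for Fdft1, -0.091 to 0.037 for Hsp90ab1, -0.11 to 0.055 for Prdx1, -0.013 to 0.30 for Ptch1, -0.14 to 0.53 for C1qb, -0.57 to 0.072 for Laptm5 and -0.93 to 0.14 for Esrrb. The causes were not tested.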
